A study of Mus musculus with 42 samples.

Results

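The genes described here are 36 hypoxia and glycolysis genes of the mouse, taken by symbol from the 47729 gene rows of a deposited RNA-seq table. All 36 were found, and all 36 passed the filter on low values (10 or more in no fewer than 3 libraries), which left 16613 genes for testing. RNA came from subcutaneous tumours of Pan02, a single mouse pancreatic adenocarcinoma line, grown in C57BL/6 mice, with 14 groups of 3 mice each. BXCL701, an inhibitor of dipeptidyl peptidases, was given daily by oral gavage at 20 ug per mouse, and vehicle was PBS. The vehicle groups are 0 h samples of day 1, day 7 and day 14. The BXCL701 groups of day 1 were sampled at 1 h, 8 h or 16 h, and those of day 7 and day 14 also at 0 h. Later hours have no vehicle group in the data used here, and there treatment and hour cannot be told apart.

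Cells sense low oxygen through prolyl hydroxylases that mark the HIF alpha subunits for degradation. When oxygen falls the subunits persist, enter the nucleus and bind short hypoxia-response elements, whose core letters are ACGTG or GCGTG, near genes for glucose uptake, glycolysis, vessel growth and survival. In solid tumours these genes are often high in poorly perfused regions, and many of the glycolytic enzymes are also abundant in dividing cells with a normal oxygen supply.

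Levels are log2(value + 1) of the deposited scaled values unless another scale is named, and differences are on that scale. The values of a library summed to between 19133149 and 26633378, and the read depth behind them is unknown. Of the epithelial markers of the labelled tumour, Krt8 had a value of at least 9774 in every library, Krt18 of at least 4565 and Msln of at least 1320. Epcam, another epithelial marker, was low, with values from 1.67 to 269. The summed log2 level of 14 skeletal muscle markers ran from 7.48 to 18.45 over the 42 libraries. That of 12 keratinocyte markers ran from 9.25 to 14.63 and that of 10 adipocyte markers from 8.14 to 15.82. The tumours thus held unequal amounts of these marker RNAs, and whether they came from neighbouring tissue was not tested. A transcript-length index, the slope of a library's gene deviations on log2 exon length, lay more than 0.3 from 0 in 4 libraries. These were vehicle day 1 replicate 2, vehicle day 7 replicate 2, BXCL701 day 7 0 h replicate 2 and BXCL701 day 7 8 h replicate 3. In bulk tumours, fewer cells of a type and less RNA per cell cannot be told apart.

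The core letters were searched on both strands in the 250 bases before each RefSeq start (build GRCm38.p6). A window was found for 34 of the 36 genes, all but Ndrg1 and Ero1l, and 31 of the 34 (91.2%) held ACGTG or GCGTG in at least 1 window. The share was 57.7% over 11794 tested genes with a window and 41.5% over all 27025 genes in the table. Some genes have more than 1 window. Counted by window, the share was 75.9% of 54 windows of the members and 52.1% of 15003 windows of tested genes. The genes with a window but neither core were Gpi1, Tpi1 and Efna1, and a match describes letters only. The windows of 4 genes whose levels are described below are shown, with the core letters in capitals on either strand and with bases of annotated exons left out. Ankrd37 is at chr8:45999868-46000100 (minus strand), Bnip3 at chr7:138909520-138909756 (minus strand), P4ha1 at chr10:59323046-59323295 (plus strand) and Pgk1 at chrX:106186850-106187099 (plus strand).
Ankrd37: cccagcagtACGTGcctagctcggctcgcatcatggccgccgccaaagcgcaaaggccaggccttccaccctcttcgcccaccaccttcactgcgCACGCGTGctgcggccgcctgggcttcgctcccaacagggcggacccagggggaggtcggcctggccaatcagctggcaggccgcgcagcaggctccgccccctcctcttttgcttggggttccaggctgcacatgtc
Bnip3: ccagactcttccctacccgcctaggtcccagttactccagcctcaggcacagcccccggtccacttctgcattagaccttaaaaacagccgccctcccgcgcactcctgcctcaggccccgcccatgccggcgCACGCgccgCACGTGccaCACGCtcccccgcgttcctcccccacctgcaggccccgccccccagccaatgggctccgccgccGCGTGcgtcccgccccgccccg
P4ha1: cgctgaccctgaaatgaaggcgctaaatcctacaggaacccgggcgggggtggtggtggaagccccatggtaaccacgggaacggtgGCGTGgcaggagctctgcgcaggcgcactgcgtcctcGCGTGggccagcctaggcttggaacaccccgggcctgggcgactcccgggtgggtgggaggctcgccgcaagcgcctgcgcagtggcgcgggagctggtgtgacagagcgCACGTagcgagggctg
Pgk1: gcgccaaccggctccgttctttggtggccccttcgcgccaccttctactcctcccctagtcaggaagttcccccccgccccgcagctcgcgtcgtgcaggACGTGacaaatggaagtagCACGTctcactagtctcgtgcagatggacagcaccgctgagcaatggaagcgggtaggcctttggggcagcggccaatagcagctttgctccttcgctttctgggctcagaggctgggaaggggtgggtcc
Bnip3 holds the palindrome CACGTG, in which the core reads on both strands, 107 and 108 bases before the start. In Pgk1 the ACGTG core stood 150 bases before the start on one strand and 131 bases before it on the other. In P4ha1 the core nearest the start lay 16 bases before it.

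Per transcript length the glycolytic enzymes were the most abundant of the 36 genes. Gapdh, which oxidises glyceraldehyde 3-phosphate, had a log2 FPKM level of 11.57 ± 0.33 (SD, n = 42). Aldoa, the aldolase of muscle and many tumours, followed at 10.07 ± 0.43, and Ldha, which makes lactate, at 9.95 ± 0.24. The first 9 places were all enzymes of the pathway. The enzymes Hk2 (3.25 ± 0.42) and Aldoc (3.49 ± 0.50) lay near the bottom, beside the flux regulators Pdk1 (3.48 ± 0.50) and Pfkfb3 (3.13 ± 0.49). Neighbours in that stretch differed by less than their spread. Adm, the vasodilator adrenomedullin, was next to last at 2.49 ± 0.82, and Ak4, a mitochondrial adenylate kinase, was last at -0.14 ± 0.90. On the log2(value + 1) scale, the SD within groups ran from 0.22 for Egln1, the main oxygen-sensing prolyl hydroxylase, to 1.10 for Ak4.

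**Figure D1:**
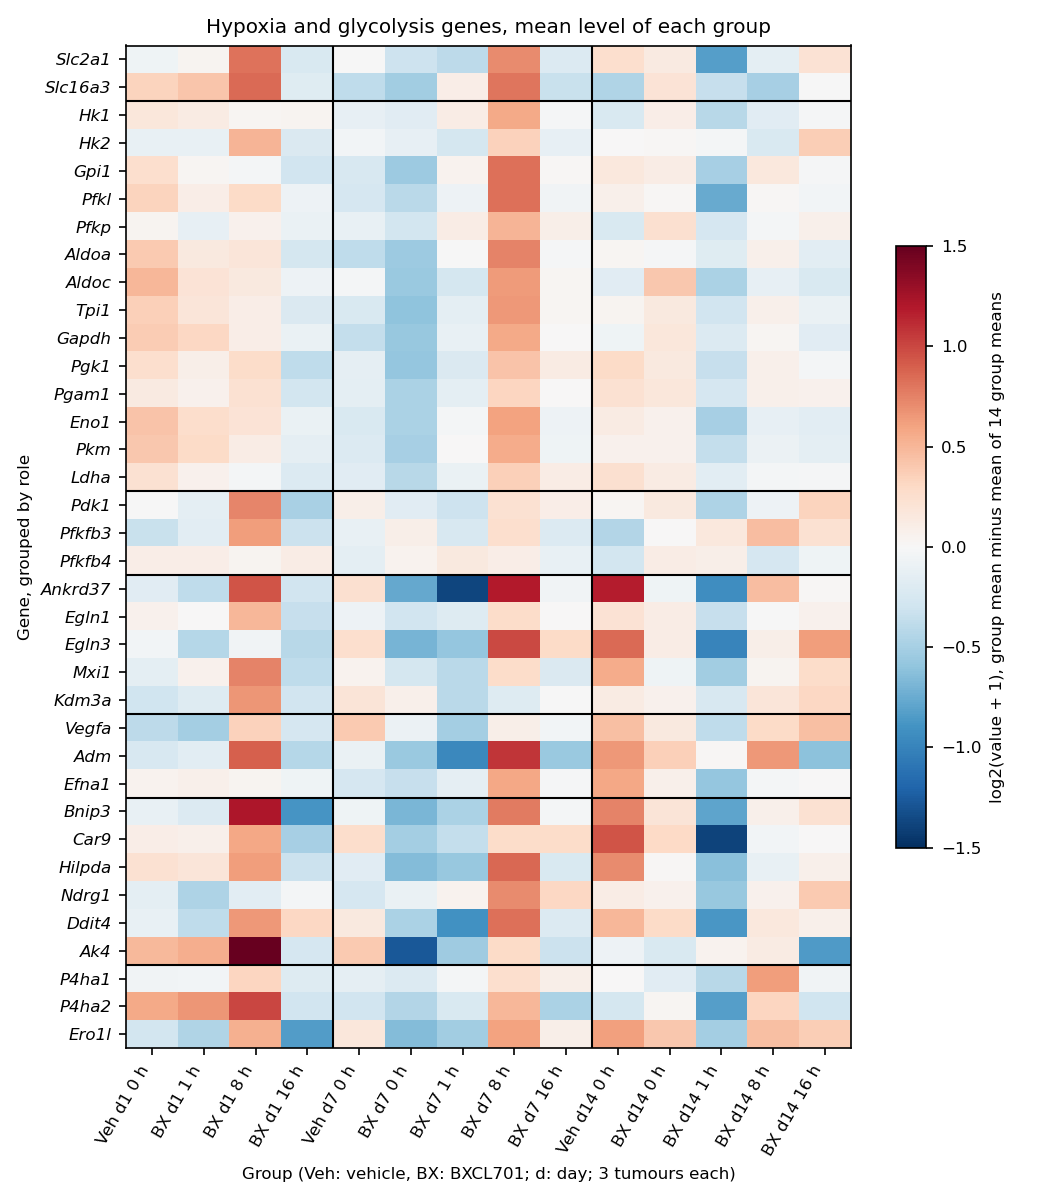
Mean level of the 36 genes (rows, by role) in the 14 groups (columns, 3 tumours each), as log2(value + 1) minus the gene's mean over the groups; red is higher. The enzyme block is reddest at BXCL701 day 7 8 h, where 13 of 14 enzymes have their highest mean (14.7% of all tested genes). It is bluest at BXCL701 day 7 0 h, where 10 of 14 have their lowest (8.45% of all tested genes).

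Most members were highest in 1 of 2 groups sampled at 8 h. Of the 14 glycolytic enzymes, 13 had their highest group mean in BXCL701 tumours on day 7 at 8 h, and Hk2 had its highest on day 1 at 8 h. Over all tested genes 14.7% were highest in the first of these groups and 15.04% in the second. Also highest on day 7 at 8 h were 6 members that are not enzymes: Ankrd37, Egln3, Hilpda, Ndrg1, Ddit4 and Adm. Both transporters, Slc2a1 for glucose and Slc16a3 for lactate, were highest on day 1 at 8 h. Of 11 members highest there, others were Pdk1, which restrains entry of pyruvate into mitochondria, Pfkfb3, which makes an activator of phosphofructokinase, the MYC antagonist Mxi1, the histone demethylase Kdm3a and the mitophagy receptor Bnip3. Vegfa, the main vessel growth factor, Car9, a carbonic anhydrase that exports acid, Ero1l, an oxidase of protein folding, and Efna1, a ligand of Eph receptors, had their highest means in vehicle tumours on day 14. These were 4 of 36 members, near the share of 11.7% over all tested genes. The range of group means was largest for Ak4 (2.93), Ankrd37 (2.56) and Car9 (2.33), and smallest for Pfkfb4 (0.42), which like Pfkfb3 sets the level of the phosphofructokinase activator.

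On day 14 the 3 members that differed between BXCL701 and vehicle tumours were all lower with BXCL701, and none was a glycolytic enzyme. Vehicle was sampled at 0 h only, so this comparison mixes treatment with hour. With limma and Benjamini-Hochberg adjustment over all tested genes, 3 of 36 fell and 0 rose in 12 BXCL701 tumours (4 hours weighted equally) against 3 vehicle tumours. Over all genes 3.29% passed (1.03% fell and 2.26% rose). At an unadjusted p under 0.05 there were 9 of 36 members, against 17.8% of all genes. The members' median difference was -0.21 with 9 of 36 higher, and the median over all genes was -0.01.

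Ankrd37 encodes an ankyrin-repeat protein and is a well-known HIF target (GRCm38 chromosome 8, 45996902 to 46005707). Its level was 8.80, 9.17 and 8.53 in the vehicle tumours of day 14, and the lowest, median and highest of the 12 BXCL701 tumours were 6.50, 7.66 and 8.79. Only the highest BXCL701 tumour, one taken at 8 h, reached into the vehicle range. Ankrd37 fell by 1.31 ± 0.33 (SE, adjusted p = 0.0247, limma). Its exons overlap those of Ufsp2 on the opposite strand, whose median value was 716, and the use of strand in the authors' counting is not given in the sources used here, so the level of Ankrd37 is uncertain.

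Hilpda, which coats lipid droplets and blocks lipid breakdown in hypoxic cells (chromosome 6, 29272488 to 29275446), had levels of 8.91, 9.06 and 9.03 in vehicle tumours, against a lowest of 7.49, a median of 8.03 and a highest of 8.82 in the BXCL701 tumours. The groups did not overlap, and Hilpda fell by 0.87 ± 0.20 (adjusted p = 0.0171, limma). Efna1 (chromosome 3, 89271733 to 89281142) stood at 10.31, 10.45 and 9.60 in vehicle tumours and at 8.83, 9.51 and 9.78 (lowest, median, highest) in BXCL701 tumours. The third vehicle tumour lay within the BXCL701 range, and the fall was 0.72 ± 0.16 (adjusted p = 0.0152, limma).

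**Figure D2:**
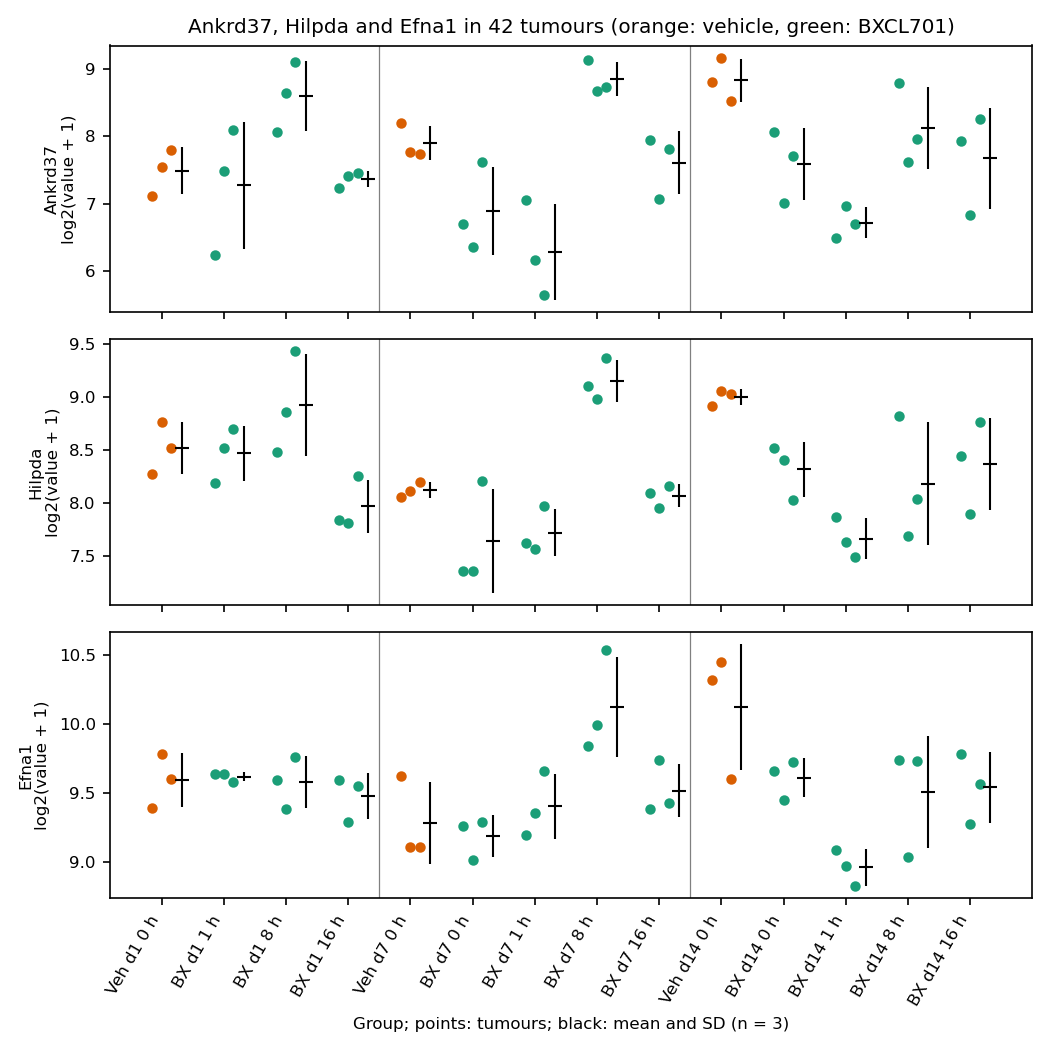
Level of Ankrd37, Hilpda and Efna1, as log2(value + 1), in each of the 42 tumours by group, with mean and SD (n = 3) in black, orange for vehicle and green for BXCL701. On day 14 the vehicle tumours lie high for each gene, at 8.53 to 9.17, 8.91 to 9.06 and 9.60 to 10.45, with 1 tumour each of Ankrd37 and Efna1 below the highest BXCL701 value.

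Among the members that did not pass on day 14, Car9 differed by -1.23 ± 0.45 (adjusted p = 0.121), Egln3, an inducible prolyl hydroxylase, by -0.89 ± 0.36 (adjusted p = 0.170) and Bnip3 by -0.81 ± 0.25 (adjusted p = 0.0663). Mxi1 differed by -0.62 ± 0.18 (adjusted p = 0.0525, limma). All 5 genes of HIF feedback and chromatin, all 6 of acid, lipid, mitophagy and stress handling, and all 3 vessel signals had negative differences. In each of these groups 1 gene passed, and the median over all genes was -0.01. All differences here share the same 3 vehicle tumours. The 14 enzymes had a median of -0.15, a range from -0.33 to 0.23 and none at an unadjusted p under 0.05. Pfkfb3 went the other way, at 0.66 ± 0.23 (adjusted p = 0.111), and Slc16a3 and Pfkfb4 were at 0.30 ± 0.40 and 0.25 ± 0.15.

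**Figure D3:**
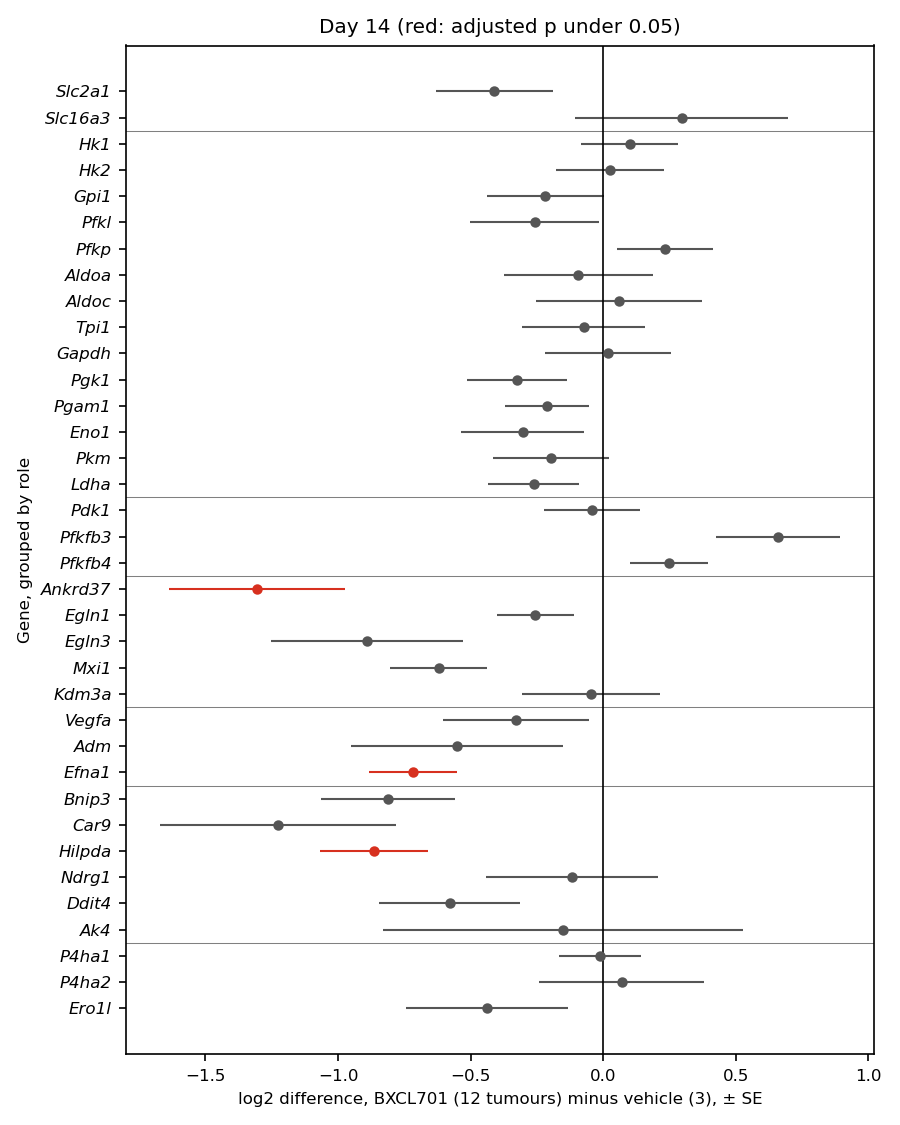
Difference of each of the 36 genes on day 14, BXCL701 (12 tumours) minus vehicle (3 tumours), as log2(value + 1) with its SE; red marks an adjusted p under 0.05. Ankrd37, Hilpda and Efna1 lie at -1.31, -0.87 and -0.72, and the enzymes between -0.33 and 0.23.

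The day 14 calls changed when single vehicle tumours were left out. Without vehicle day 14 replicate 1 or replicate 2 the count was 0 (1.31% and 0.00602% of all genes). Without replicate 3 it was 7 (12.2% of all genes), and without BXCL701 day 14 0 h replicate 2 it was 5 (3.5%). With the day 14 libraries fitted alone the count was 0 (0.00602% of all genes), with adjusted p from 0.125 to 0.148 for the 3 genes at the same differences. Marker levels of other cell types also differed in this comparison, in which 2.26% of all genes rose. The neutrophil list had 8 of 13 genes that rose, with a summed log2 level of 11.32 to 12.04 in vehicle and 11.58 to 13.37 in BXCL701 tumours. Keratinocyte markers were lower for 12 of 12 genes, with summed levels of 10.24 to 14.63 and 9.67 to 13.53. Adipocyte markers were higher for 10 of 10, at 9.90 to 12.18 and 9.87 to 15.82, and muscle markers lower for 13 of 14, at 11.63 to 14.50 and 7.89 to 18.45. Macrophage markers were higher for 12 of 12, of which 2 rose, with summed levels of 16.33 to 17.39 and 16.98 to 17.88. T cell markers were higher for 8 of 8, of which 2 rose, at 8.49 to 10.25 and 9.50 to 10.83. Red blood cell markers were lower for 5 of 5, at 10.05 to 14.19 and 10.20 to 14.48. None of the keratinocyte, adipocyte, muscle or red blood cell markers passed the test, and no gene of these lists was at 0 in every library. With the muscle, keratinocyte and adipocyte list means as covariates, Ankrd37, Hilpda and Efna1 differed by -1.30, -0.80 and -0.72 (adjusted p = 0.0338, 0.0371 and 0.0174, limma). The part of neutrophil, macrophage, T cell and red blood cell RNA in the result was not tested.

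Genes of the same pathways outside the 36 gave 2 calls on day 14, where 2.26% of all genes rose and 1.03% fell. Of 34 other hypoxia-induced genes 0 passed, 4 had an unadjusted p under 0.05 (17.8% of all genes) and the median was -0.07. Of 14 components of the HIF pathway, 1 rose: Hif1an, the asparaginyl hydroxylase that dampens HIF activity, by 0.37 ± 0.09 (adjusted p = 0.0225, limma). Of 23 tested other glycolysis genes, 1 rose: Hk3, a hexokinase of myeloid cells, by 1.29 ± 0.29 (adjusted p = 0.0141, limma), beside the neutrophil list above.

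On days 1 and 7 no member passed. On day 7, 0 of 36 were called and 0 had an unadjusted p under 0.05, against 0.00602% called and 9.87% of all genes, with 22 of 36 higher and a median of 0.08. On day 1, 0 of 36 were called and 0 had an unadjusted p under 0.05, against 0% and 2.63% of all genes, with a median of -0.04. At 0 h, where vehicle and BXCL701 tumours share the hour, days 7 and 14 together gave 0 of 36 called (0.512% of all genes) and 7 at an unadjusted p under 0.05 (10.8% of all genes). Ankrd37 came nearest at -1.13 ± 0.30 (adjusted p = 0.0698, limma), then Hilpda at -0.58 ± 0.18 (adjusted p = 0.140) and Mxi1 at -0.47 ± 0.16 (adjusted p = 0.2). The vehicle levels of Ankrd37 at 0 h were 7.74 to 9.17 over both days, and the BXCL701 levels 6.36 to 8.06, so the groups overlapped. Efna1 differed by -0.30 ± 0.15 (adjusted p = 0.457). The test of whether the 0 h treatment difference itself differed between days 14 and 7 called 0 of 36, 0 at an unadjusted p under 0.05, against 0% called and 2.77% of all genes. These comparisons share the vehicle libraries.

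The vehicle tumours themselves were compared between days. Between days 14 and 7, 0 of 36 passed (0% of all genes), and 5 had an unadjusted p under 0.05 against 15.8%. The smallest p there was that of Efna1, 0.84 ± 0.21 higher on day 14 (adjusted p = 0.119, limma), followed by Hilpda, 0.88 ± 0.26 higher (adjusted p = 0.135). Ankrd37 had the largest difference, 0.93 ± 0.42 (adjusted p = 0.267). Between days 14 and 1, 0 of 36 passed (0.0602% of all genes, 0.0542% higher), 7 had an unadjusted p under 0.05 (12% of all genes), and Ankrd37 was 1.35 ± 0.42 higher (adjusted p = 0.198). Between days 7 and 1, 0 of 36 passed (0% of all genes), and 6 had an unadjusted p under 0.05 (18.4% of all genes). The high vehicle levels of day 14 enter both the comparison with BXCL701 and the comparison with earlier vehicle tumours, which therefore share those 3 libraries. Within BXCL701 tumours, 0 of 36 passed between days 7 and 1 (0.12% of all genes, 0.102% higher and 0.0181% lower), days 14 and 1 (1.27%, 0.572% higher and 0.698% lower) or days 14 and 7 (0.012%), with 4, 7 and 1 at an unadjusted p under 0.05 against 16.4%, 18.1% and 5.03%. The smallest p among these was that of P4ha2, a collagen prolyl hydroxylase, at -0.73 ± 0.23 between days 14 and 1 (adjusted p = 0.0923, limma).

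With days 7 and 14 pooled, most members were higher at 8 h than at 0 h, without a call. Within day 7, 35 of 36 were higher (median 1.02), and within day 14, 12 of 36 (median -0.10). Over days 7 and 14, 6 BXCL701 tumours at 8 h against 6 at 0 h gave 34 of 36 higher, a median of 0.43 against -0.04 over all genes, and 19 at an unadjusted p under 0.05 against 9.16%. After adjustment 0 of 36 passed, against 0.132% of all genes, 0.0963% higher (limma). P4ha1, the catalytic subunit of collagen prolyl hydroxylase (chromosome 10, 59323296 to 59373304), came nearest. Its levels at 8 h were 12.43, 12.26 and 11.72 on day 7 and 12.73, 12.01 and 12.80 on day 14. At 0 h they were 11.62, 11.37 and 12.04 on day 7 and 11.76, 11.64 and 11.74 on day 14. The difference was 0.63 ± 0.14 (adjusted p = 0.0555, limma). The groups overlapped, since the highest 0 h tumour (12.04) lay above 2 of the 8 h tumours (11.72 and 12.01). With median-of-ratios scaling its adjusted p was 0.0425, and without any one of BXCL701 day 7 0 h replicate 3, day 7 8 h replicate 3 or day 14 8 h replicate 2 it was 0.0159, 0.0112 or 0.00407. Over all single omissions it ran up to 0.235, and with the compared libraries alone it was 0.798. Ankrd37 differed by 1.24 ± 0.30 (adjusted p = 0.0860), Hilpda by 0.69 ± 0.18 (adjusted p = 0.150) and the glycolytic isomerase Gpi1 by 0.71 ± 0.20 (adjusted p = 0.205, limma).

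The 1 h and 16 h tumours gave smaller values. At 1 h against 0 h, 0 of 36 passed (0.012% of all genes), 4 had an unadjusted p under 0.05 (2.44% of all genes) and 8 of 36 were higher, with a median of -0.20. The stress inhibitor of mTORC1, Ddit4, had the smallest p there, at -0.80 ± 0.24 (adjusted p = 1). At 16 h against 0 h, 0 of 36 passed (0.00602% of all genes) and 1 had an unadjusted p under 0.05 (2.29% of all genes). Of the 36, 30 were higher at 16 h, with a median of 0.17 against 0.01 over all genes. These 3 comparisons share the 0 h libraries.

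The 8 h and 0 h tumours were also compared within each day, a choice made after the values had been seen. Day 7 at 8 h had the highest group mean of 19 of 36 members (14.7% of all genes). Day 7 at 0 h had the lowest of 13 of 36 (8.45% of all genes). For Hilpda, Gpi1, Tpi1 and Pgk1 these were the highest and the lowest of the 14 groups. The adjusted p-values and the overlaps given for day 7 make no allowance for that choice. On day 7, 7 of 36 rose and 0 fell, against 0.313% and 0.0722% of all genes, with 27 at an unadjusted p under 0.05 against 25.2%. The median was 1.02 against -0.07 over all genes, and 35 of 36 were higher. On day 14, 0 of 36 passed, against 0.0421% of all genes, 1 had an unadjusted p under 0.05 (5.13% of all genes), and the median was -0.10. The difference between the days was tested directly, and 0 of 36 passed (0.0361% of all genes, limma). At an unadjusted p under 0.05 there were 23 of 36 against 20.1%, and Hilpda was nearest at -1.64 ± 0.36 (adjusted p = 0.133).

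Hilpda rose most clearly on day 7. Its levels were 7.36, 7.36 and 8.20 at 0 h and 9.10, 8.98 and 9.36 at 8 h, with no overlap, and the rise was 1.51 ± 0.26 (adjusted p = 0.00255, limma). Ankrd37 stood at 6.70, 6.36 and 7.61 at 0 h and at 9.14, 8.67 and 8.73 at 8 h. Again the groups did not overlap, and it rose by 1.96 ± 0.42 (adjusted p = 0.0313). Bnip3 was at 9.58, 9.54 and 10.22 at 0 h and at 11.66, 11.41 and 10.65 at 8 h, and rose by 1.46 ± 0.32 (adjusted p = 0.0328, limma). Efna1 rose by 0.93 ± 0.21 (adjusted p = 0.0379), from 9.01 to 9.29 at 0 h to 9.84 to 10.53 at 8 h.

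Of the 14 enzymes 3 rose on day 7. Gpi1 (chromosome 7, 34201330 to 34230336) was at 13.44, 12.96 and 13.94 at 0 h and at 14.58, 14.65 and 15.19 at 8 h, a rise of 1.37 ± 0.28 (adjusted p = 0.0191, limma). Every 8 h tumour was above every 0 h tumour. Tpi1, the triose isomerase, rose by 1.26 ± 0.29 (adjusted p = 0.0470) and Pgk1, the first ATP-yielding kinase of the pathway, by 1.02 ± 0.24 (adjusted p = 0.0481). Of the other 11 enzymes, all were higher and 10 had an unadjusted p under 0.05, with Hk2 the exception at 0.48 ± 0.26. Tpi1 overlaps Spsb2 on the opposite strand, whose median value was 534 and highest value 1178. The group means of Tpi1 ran from 13.30 to 14.56 on the log2 scale, and the part of Spsb2 in them was not tested. Bnip3, Tpi1 and Pgk1 were named after their values had been seen. On day 14 the same differences were 0.05 ± 0.28 for Gpi1, -0.07 ± 0.29 for Tpi1, -0.07 ± 0.24 for Pgk1 and -0.13 ± 0.26 for Hilpda. P4ha1 was the member with an unadjusted p under 0.05 on day 14, at 0.79 ± 0.20 (adjusted p = 0.157, limma).

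**Figure D4:**
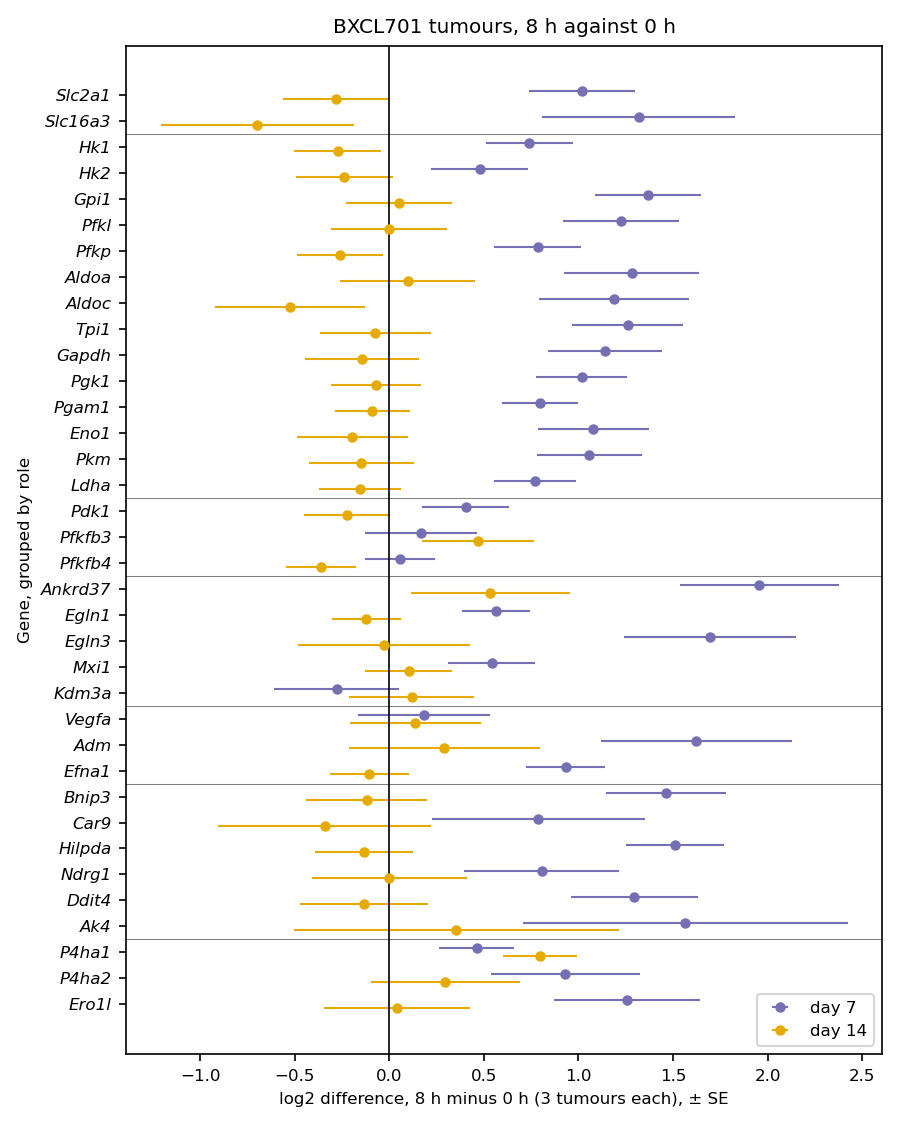
Difference of each of the 36 genes between 8 h and 0 h in BXCL701 tumours, as log2(value + 1) with its SE (3 tumours each), purple for day 7 and yellow for day 14. On day 7 35 of 36 lie above 0, with a median of 1.02, and on day 14 12 of 36 do, with a median of -0.10.

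The day 7 count differed between settings, and so did the count over all genes (0.385% with every library). Without BXCL701 day 7 0 h replicate 2 it was 0 (0.0662% of all genes), without 0 h replicate 1 it was 1 (0.126%), and without 0 h replicate 3 it was 24 (8.37%). Without 8 h replicate 2 or 3 it was 2 (0.259% and 0.114%). Of these libraries, 0 h replicate 2 and 8 h replicate 3, had transcript-length indices of 0.33 and -0.41, the others of the 2 groups lay between -0.04 and 0.09, and without the 4 libraries of extreme index the count was 0 (0.0361% of all genes). With the index as a covariate it was 1 and with the tissue list means as covariates it was 1, Hilpda in both (adjusted p = 0.0467 and 0.0393, limma), against 0.102% and 0.114% of all genes. The differences with the index were 1.15 for Hilpda, 1.84 for Ankrd37, 1.56 for Bnip3, 0.60 for Efna1, 0.80 for Gpi1, 0.62 for Tpi1 and 0.75 for Pgk1. With the tissue covariates they were 1.39, 1.70, 1.39, 0.78, 1.23, 1.21 and 0.82 in the same order. Between 0 h and 8 h on day 7, muscle markers were lower for 14 of 14 genes, with summed log2 levels of 12.65 to 14.90 and 8.07 to 14.69. Adipocyte markers were lower for 10 of 10, at 10.18 to 13.82 and 8.14 to 12.88. Red blood cell markers were higher for 5 of 5, at 10.02 to 11.33 and 12.19 to 15.37, and epithelial markers for 6 of 7, at 14.05 to 15.06 and 15.49 to 16.39. No gene of these lists was at 0 in every library and none passed the test. The part of blood and epithelial content in the result was not tested.

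Other pathway genes on day 7 were called in 2 of 3 lists, where 0.313% of all genes rose. Of 34 other hypoxia-induced genes 3 rose: Fam162a by 1.56 ± 0.31, Higd1a by 1.16 ± 0.26 and the stress cytokine Gdf15 by 2.04 ± 0.45 (adjusted p = 0.0180, 0.0379 and 0.0340, limma). The median of that list was 0.35. Of the 23 tested other glycolysis genes 1 rose, the pyruvate dehydrogenase kinase Pdk3, by 0.59 ± 0.14 (adjusted p = 0.0481), and the median was -0.09. Of 14 HIF pathway components 0 passed, and 4 had an unadjusted p under 0.05, against 25.2% of all genes.

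On day 1 there was no BXCL701 group at 0 h, and the 8 h tumours were set against vehicle at 0 h, also after the values had been seen. Of 36 members 0 passed (0% of all genes) and 13 had an unadjusted p under 0.05 (16.5% of all genes, limma). Bnip3 was at 10.05, 9.91 and 11.06 in vehicle and at 11.46, 11.66 and 11.88 at 8 h, without overlap, and differed by 1.32 ± 0.32 (adjusted p = 0.273). Pdk1 differed by 0.74 ± 0.23, Kdm3a by 0.96 ± 0.33 and Slc2a1 by 0.88 ± 0.28, each with an adjusted p of 0.278. The enzymes Gapdh and Pkm were at -0.28 ± 0.30 and -0.28 ± 0.28.

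Within groups, 4 members were lower in tumours with higher levels of the skeletal muscle markers. In a fit with the muscle, keratinocyte and adipocyte list means together, 4 of 36 fell and 0 rose with the muscle list, against 2.84% and 8.01% of all genes. The change per unit of the muscle list's mean log2 level was -0.06 ± 0.01 for P4ha1 (adjusted p = 0.00596), -0.11 ± 0.03 for Ero1l (adjusted p = 0.00854), -0.11 ± 0.03 for Egln3 (adjusted p = 0.0215) and -0.08 ± 0.03 for Vegfa (adjusted p = 0.0468, limma). Without BXCL701 day 14 8 h replicate 2 the count was 0 (4.55% of all genes), while the slopes were -0.05 for P4ha1, -0.10 for Ero1l, -0.09 for Egln3 and -0.09 for Vegfa (adjusted p from 0.0840 to 0.138, limma). Without BXCL701 day 7 16 h replicate 3 it was 7 (16.2% of all genes, against 10.8% with every library). Without BXCL701 day 7 1 h replicate 1 or day 7 8 h replicate 3 it was 2 (7.99% and 7.37% of all genes). Egln3 lost its call in 5 of 42 single omissions. Vegfa lost its call in 29 of them (adjusted p up to 0.169), with log2 FPKM (0.0967) and with median-of-ratios scaling (0.0536). Of the enzymes 0 of 14 passed, and Aldoa, the muscle aldolase, was at 0.05 ± 0.03. With the keratinocyte list 0 of 36 passed (6.78% of all genes, 2 at an unadjusted p under 0.05 against 17.6%), and with the adipocyte list 0 of 36 (1.79% of all genes, 2 against 7.8%).

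**Figure D5:**
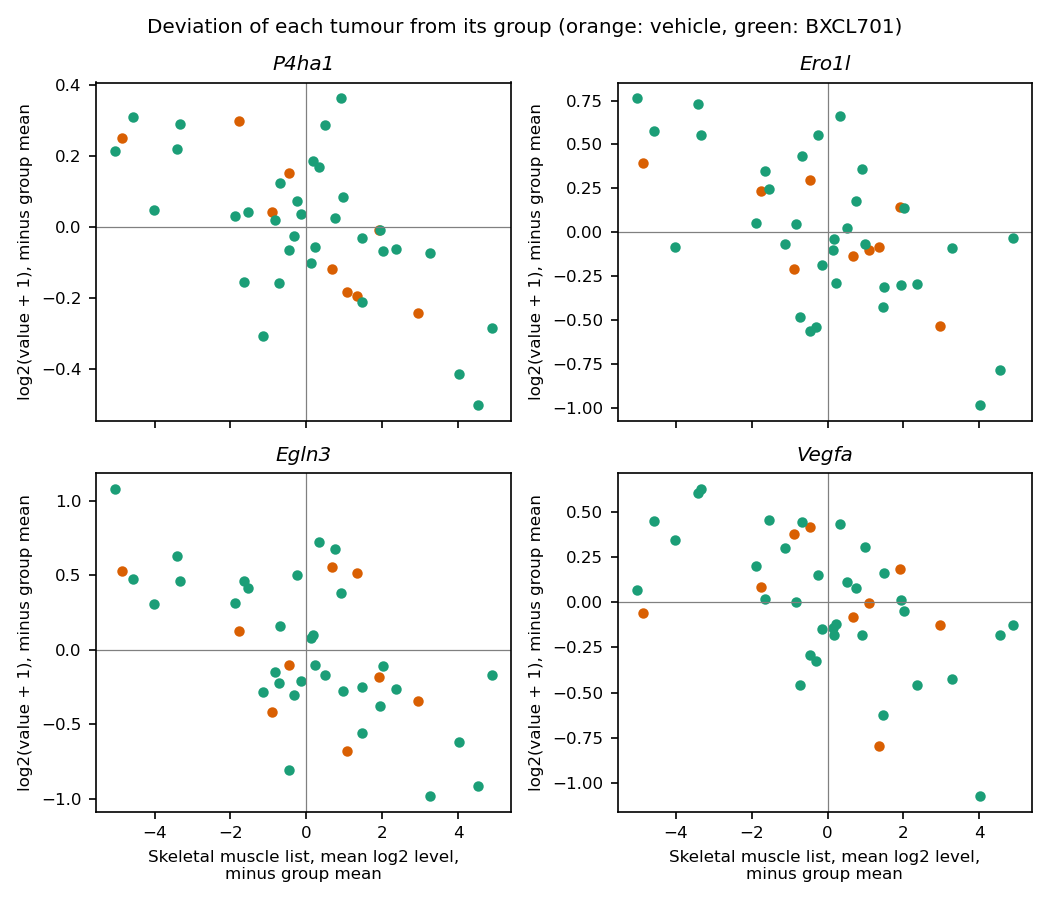
Deviation of P4ha1, Ero1l, Egln3 and Vegfa from the group mean (log2(value + 1), vertical) against the deviation of the mean log2 level of 14 skeletal muscle markers (horizontal) in 42 tumours, orange for vehicle and green for BXCL701. The points fall from upper left to lower right, and the adjusted p of the association runs from 0.00596 for P4ha1 to 0.0468 for Vegfa (limma). That fit also holds the keratinocyte and adipocyte list means, for which the points are not adjusted. Without BXCL701 day 14 8 h replicate 2 none of these genes passed, and Vegfa lost its call in 29 of 42 single omissions.

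Some close copies of Eno1, Pgk1, Ldha, Gapdh and Aldoa were looked up, and these were at or near 0. Other copies of these genes, and copies of the other members, were not looked up. The enolase copy Eno1b reached a value of 7.54 at most, Pgk1-rs7 of 5.48 and Gapdh-ps15 of 2.64. Opposite-strand genes with shared exons and a high level were Pitrm1 for Pfkp (median value 1248) and Iffo1 for Gapdh (median value 206), beside Ufsp2 and Spsb2 above. The group means of Pfkp ran from 11.14 to 11.93 on the log2 scale, so its level is uncertain.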

How the data were processed

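RNA-seq of 42 tumours in 14 groups of 3 mice was used. GRCm38, Bowtie 0.12.9 and Trimmomatic 0.36 are named in the submitters' processing notes. Quantification tool, annotation, strand and scaling: not given in the sources used here. A gene table deposited by the authors holds signal values that are not whole reads. A deposited table of log2 FPKM was an alternative, and a second deposited log2 FPKM table held the same values (largest difference 0). Samples were grouped by label, replicate numbers follow record order, and each library has its own animal ID.

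The filter on low values (10 or more in no fewer than 3 libraries) left 16613 of 47729 genes. limma 3.58.1 in R 4.3.3, with intensity trend and robust moderation, was fitted to log2(value + 1) of all libraries, with 1 coefficient per group and 28 residual degrees of freedom. P-values were adjusted by Benjamini-Hochberg over all genes in each of 21 comparisons (threshold 0.05). A fold change on this scale understates the change of low genes. The script was tested on simulated data. Tables and plots used pandas 2.3.3 and matplotlib 3.10.9.

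The members, marker lists and comparisons were chosen with earlier results of these data known, and the 8 h comparisons within a day after their values were seen. All members are counted by role. Members past the threshold in a comparison of the design are described in detail, filled up to 8 by smallest p. Alternatives were median-of-ratios scaling (factors 0.979 to 1.02), no filter, a pseudocount of 5, the FPKM table, the compared libraries alone, tissue list means or the transcript-length index (11491 genes) as covariates, and omission of libraries.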

Additional observations from a re-analysis of the deposited data

How the results depend on the processing

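No paired analysis was possible because each library came from its own mouse and replicate numbers only follow record order. The number of members past the threshold changed as follows. On day 14 it was 3, and 6 with the transcript-length index, 5 without the 4 libraries of extreme index, 0 with the compared libraries alone, and 0 to 7 without single libraries. Over all genes, the day 14 count of 376 higher and 171 lower became 1292 and 1675 with the index, and 1 and 0 alone. At 0 h it was 0, and 2 with the index and 0 to 2 without single libraries. For 8 h against 0 h it was 0, and 1 with median-of-ratios scaling, 1 with the index and 0 to 4 without single libraries. On day 7 alone it was 7, and 2 with FPKM, 1 with the index, 1 with tissue covariates, 0 alone, 0 without the extreme libraries, and 0 to 24 without single libraries. On day 14 alone it was 0, and 1 with tissue covariates and 0 to 1 without single libraries. For BXCL701 days 7 and 14 against day 1 it was 0, and 1 and 2 with the index. Muscle association was 4, 7 with the index and 0 to 7 without single libraries. Keratinocyte association was 0, 1 with FPKM, 1 with the index and 0 to 1 without single libraries. Single omissions gave 0 to 2 for vehicle day 14 against day 1, 0 to 1 for vehicle day 14 against day 7, 0 to 1 for BXCL701 day 14 against day 1, 0 to 1 for the 8 h difference between days and 0 to 0 for the others. Over all 16613 genes, single omissions gave 1 to 2021 calls on day 14 and 6 to 807 at 0 h. For 8 h against 0 h they gave 11 to 72, within day 7 11 to 1390 and within day 14 1 to 11. Muscle association gave 756 to 3527 and keratinocyte association 687 to 1614. Vehicle day 14 gave 0 to 1018 against day 1 and 0 to 1296 against day 7. BXCL701 day 14 against day 1 gave 53 to 437, and the 8 h difference 0 to 21. Where no count over all genes is given, a member count is no result about the members. For named genes, 548 settings kept the side of the threshold, 110 lost it, 27 gained it and none reversed. The 548 include comparisons in which the gene had not passed with every library, so no call could be lost. For 8 h against 0 h on day 7, Pgk1 lost its call in 5 of 6 single omissions. Bnip3, Tpi1, Efna1 and Ankrd37 lost theirs in 4 of 6, Gpi1 in 3 and Hilpda in 1. Leaving out libraries reduces the samples tested. The cause of the other shifts was not tested, and without depth counting error is unknown.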
